A study of Mus musculus with 2 samples.

Results

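The transcripts of 10 genes that control transcription or chromatin in meiotic and haploid male germ cells (Crem, Fhl5, Rfx2, Sox30, Tbpl1, Mybl1, Cdyl, Hemgn, Brdt and Pou5f2) were followed through single mouse testis cells. The genes were taken by symbol, and a symbol was read only where a single row of the count matrix could carry it, which held for 10 of the 10 listed genes and for 5476 of the 25065 symbols in all. The study sequenced 2 libraries of adult testis cells from mice of the strain C57BL/6 by the labels and C57BL/6N by the study's methods, 1 from WT animals and 1 from Tex13a-KO animals, in which CRISPR-Cas9 had removed every exon of Tex13a. Each library held the cells of 3 testes, pooled before capture, and both were made from whole testis digested with collagenase I. The authors sorted the cells into 13 clusters, named Sg (spermatogonia), Sc1 and Sc2 (spermatocytes), Sd1 (spermatocytes mixed with early spermatids) and Sd2 to Sd10 (spermatids, in order of development). Both genotypes lacked replicate libraries, so the effect of genotype and that of library preparation cannot be told apart. No test was possible, and every interval given here is a 95% interval for counting error alone.

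The haploid phase of spermatogenesis depends on transcription factors that seldom act elsewhere in the body. CREM, a basic leucine zipper factor of the CREB family, switches on genes of spermiogenesis with the help of the LIM-only coactivator FHL5, also called ACT, and TBPL1, also called TRF2, is a relative of the TATA-binding protein that germ cells need to complete spermiogenesis. MYBL1, also called A-MYB, drives the pachytene programme, RFX2 drives genes of cilia and flagella, and SOX30 is an HMG-box factor needed for spermatids to develop. BRDT is the testis member of the BET family, whose bromodomains read acetylated histones, CDYL is a chromodomain protein of the CDY family, HEMGN is a nuclear protein first known from blood cells, and POU5F2, also called SPRM-1, is a POU-domain factor of germ cells.

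Promoters of 8 of the 10 genes were present in the RefSeq table for GRCm38.p6, as 11 windows of 300 bases from 250 bases before to 50 bases after a transcription start. Crem and Mybl1 had no entry. Motifs known for the families of these factors were searched on both strands. The full cAMP response element TGACGTCA lay in 0 of the 11 windows and in 1.79% of all 32851 windows, and its 5-base core TGACG, which is part of the full element, lay in 1 of 11, that of Rfx2, against 20.8% of all. The X-box core GTTGCC lay in 2 of 11 windows, of Rfx2 and Cdyl, against 12.5% of all windows. The SOX core ACAAT lay in 4 of 11 windows, of Fhl5, Sox30 and Cdyl, against 31.0% of all, and the MYB core AACNG lay in 11 of 11 windows and in 80.3% of all windows, so that its presence sets no gene apart. The stretches shown here are those around the X-box core of Rfx2, itself an RFX factor, and around the SOX core of Sox30, itself a SOX factor, and of the SOX core of Fhl5 and Cdyl, which rose in the same spermatid clusters as Sox30. Capitals mark the motif, and each stretch reads 5′ to 3′ on the strand of its gene.
Rfx2: agcttggtaaccGTTGCCgggcgcaacgcc
Sox30: aacggctgagctcACAATcccggccgcggc
Fhl5: ggctcatgacataACAATcggtgtcagcac
Cdyl: ggccccgcccaccACAATgtgcggccccgc
The stretch of Rfx2 is chr17:56831107-56831136 on the minus strand, and its match starts 116 bases before the transcription start and shares bases with a match to the MYB core. The stretch of Sox30 is chr11:45980272-45980301 on the plus strand, with the match 25 bases before the start, and that of Fhl5 is chr4:25242879-25242908 on the minus strand, with the match 43 bases before the start. The stretch of Cdyl is chr13:35741235-35741264 on the plus strand and lies in 2 overlapping windows, 214 and 154 bases before their starts, inside the annotated gene, which runs from 35659833 to 35874063 in GENCODE vM21. A match to so short a motif is a description of the letters and not evidence of binding.

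The WT library held 45568532 unique molecular identifiers (UMIs) in 5170 cells, with a median of 6508 UMIs per cell, and the KO library 67734689 in 7238 cells, with a median of 6714.5. The libraries shared 0 cell barcodes. Tex13a itself could be any of 7 rows of the matrix, of which 1 had no KO UMI and 2295 WT UMIs, and since that row could be picked only by its absence in KO it does not check the labels. The clusters bore the markers of their names with some exceptions. The summed level of the 3 spermatogonia markers read (Kit, Uchl1 and Dazl) was 2279 UMIs per 1000000 UMIs of the same library and cluster (CPM) in Sg of WT and 2687 in Sc1, and fell to between 17.8 and 234 CPM elsewhere. The early spermatocyte markers peaked in Sc1 at 14756 CPM, and the 5 round spermatid markers, 1 of which is Hemgn, peaked in Sd4 at 2971 CPM but were at only 62.8 CPM in Sd1. The elongating spermatid markers peaked in Sd8 and the late spermatid markers in Sd10. No Sertoli or endothelial marker had a single possible row, and the Leydig, peritubular and macrophage markers that had one (Cyp17a1, Myh11 and Cd68) were at or below 14.0 CPM in every cluster.

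The clusters of early cells also held spermatid RNA. Prm1, which encodes the sperm protamine that replaces histones, was at 21336 CPM in Sg of WT, or 13.5% of its highest level, and at 14.1% in Sc1 and 3.39% in Sc2, and 219 of 219 Sg cells of WT had a Prm1 UMI. For the spermatid genes studied here, a level in Sg, Sc1 or Sc2 was therefore read against Prm1. Over the whole WT library, Fhl5 had 5.77 UMIs per 1000 Prm1 UMIs, Cdyl 3.50, Hemgn 1.80 and Crem 4.50. In Sg the same ratios were 3.74, 4.48, 0.970 and 2.97, and in Sc1 they were 2.07, 1.5, 0.221 and 3.27. Apart from Cdyl in Sg, these were below the ratio of the whole library, so the UMIs of Fhl5, Hemgn and Crem in Sg and those of all 4 genes in Sc1 were not read as expression by these cells. In contrast, Brdt had 11.8 and Mybl1 5.21 UMIs per 1000 Prm1 UMIs in Sc1, against 2.82 and 0.978 over the whole library, and Crem had 39.4 in Sc2.

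For shares of cells with a UMI, the lowest WT cluster of each gene is given as a point of comparison. This was Sd1 for Fhl5 (11.9% of cells), Cdyl (5.07%) and Hemgn (1.75%), and Sd7 for Crem (26.0%) and Pou5f2 (0.429%). Median depths were 7196 UMIs per cell in Sd1 and 5870.5 in Sd7. These shares do not measure the background of other clusters, because spermatid RNA differed between clusters, as the levels of Prm1 showed. The genes of the meiotic programme were highest in the last spermatocyte cluster and in Sd1. The levels over the clusters are a description, because the authors made the clusters from the expression of all genes. Brdt was already high in Sc1. In WT it rose from 63.3 CPM (51.7 to 76.7) in Sg to 263 (232 to 296) in Sc1 and 329 (316 to 343) in Sc2, and the KO levels in the same clusters were 72.5, 304 and 346. It then stayed on a plateau from Sd1 to Sd3, at 223 to 239 CPM in WT and 263 to 269 in KO, whose neighbouring intervals overlapped within each library. From Sd4 to Sd5 it fell 3.58-fold in WT and 3.60-fold in KO. In Sc2, 92.8% of WT cells and 94.1% of KO cells had a Brdt UMI, which became 66.0% and 64.3% once every cell was thinned to 3000 UMIs. Sd7, its lowest WT cluster, still had 10.9% of cells with a Brdt UMI.

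Mybl1 had a shorter course. It was at 12.2 CPM in Sg of WT, 116 (95.7 to 138) in Sc1, 136 (128 to 145) in Sc2 and 159 (148 to 170) in Sd1. In KO it was at 15.2, 116, 146 and 184 CPM in the same clusters, so that the order of the clusters was the same in both libraries. It then fell 3.22-fold in WT and 3.21-fold in KO from Sd1 to Sd2, and from Sd5 on it was at or below 11.8 CPM in both libraries. After thinning, 37.6% of Sd1 cells in WT and 42.3% in KO had a Mybl1 UMI, against 14.0% and 14.8% in Sd2. The fall came before that of Brdt, while Mybl1 levels in Sc1 and Sc2 did not differ beyond their intervals in either library.

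Pou5f2, whose gene is a single short unit on chromosome 13 (78024902 to 78026295), had most of its UMIs in 1 cluster. It was at 177 CPM (167 to 187) in Sc2 of WT and 216 (208 to 224) in Sc2 of KO, and at 55.6 and 57.2 CPM in Sd1. From Sd1 to Sd2 it fell 12.7-fold in WT and 8.07-fold in KO. In Sc1, 1 UMI was counted in WT and 0 in KO. Of the Sc2 cells, 52.5% in WT and 59.8% in KO held a Pou5f2 UMI, with 4.91 and 5.13 UMIs per positive cell. From Sd3 on no more than 22 UMIs were counted in any cluster of either library.

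Rfx2 was counted least, with 1158 UMIs in the WT library and 2011 in KO, and its profile was the flattest. It was at 42.5 CPM (37.8 to 47.6) in Sc2 of WT, 33.3 in Sd1, 38.0 in Sd2 and 27.0 in Sd3, and at 42.4, 43.4, 41.5 and 32.7 CPM in KO. In both libraries, all 12 pairs of neighbours in the order of its levels had overlapping intervals, so its highest cluster (Sc2 in WT and Sd1 in KO) was not resolved. The level fell to 14.1 CPM in Sd8 of WT and 10.6 in KO, which was still 33.2% and 24.5% of the highest cluster. Rfx2 was seen in 42.0% of Sc2 cells in WT at full depth and in 12.1% after thinning.

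Tbpl1 combined a high level with a sharp end. It was at 526 CPM (509 to 543) in Sc2 of WT, 922 (896 to 948) in Sd1, 909 (873 to 945) in Sd2 and 645 (623 to 668) in Sd3, and at 605, 889, 865 and 634 CPM in KO. Sd1 and Sd2 did not differ beyond their intervals in either library. The level dropped to 232 CPM in Sd4 and 18.3 CPM in Sd5 of WT, and to 199 and 17.9 CPM in KO, which is a step of 12.7-fold in WT and 11.1-fold in KO between these 2 neighbouring clusters. Nearly every Sd1 cell had a Tbpl1 UMI, 98.6% in WT and 99.2% in KO, against 11.4% and 11.3% in Sd5. The level in Sg, 153 CPM in WT, corresponded to 7.16 UMIs per 1000 Prm1 UMIs against 6.49 for the whole library, and in KO to 6.82 against 10.7, so it was slightly above the ratio of the library in WT and below it in KO. The last exon of Tbpl1, on chromosome 10 (gene from 22703879 to 22731938), overlaps the last exon of Slc2a12 on the other strand. The sources do not state whether counting used the strand, and Slc2a12 had no single possible row, so reads of both genes cannot be told apart there.

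Crem began in spermatocytes and was highest in round spermatids. In WT it rose from 211 CPM (201 to 222) in Sc2 through 289 in Sd1 and 422 in Sd2 to 637 (615 to 660) in Sd3, and was still at 537 (516 to 560) in Sd4. The KO library followed with 220, 289.8, 446, 608 and 498 CPM. No neighbours among these 5 clusters had overlapping intervals in either library. From Sd4 to Sd5 the level fell 5.13-fold in WT and 4.77-fold in KO, to 105 and 104 CPM, and the lowest level was in Sd7, at 46.1 and 48.4 CPM. In Sd3, 96.6% of WT cells and 96.9% of KO cells held a Crem UMI, and 81.9% and 81.8% did so after thinning. An exon of Crem also overlaps a non-coding gene on the other strand, Gm6225, whose reads cannot be told apart from those of Crem for the same reason.

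Fhl5, the coactivator of CREM, appeared after Crem. It was at 30.3 CPM (24.1 to 37.6) in Sd2 of WT, 211 (198 to 224) in Sd3, 790.1 (764 to 817) in Sd4 and 1453 (1409 to 1499) in Sd5, and at 22.3, 186, 819 and 1349 CPM in KO. In Sd5, where Crem had already fallen to 16.4% of its highest WT level, Fhl5 was at its own highest level, and 99.3% of WT cells and 100% of KO cells had an Fhl5 UMI. It then fell more slowly than it rose, to 686 CPM in Sd6, 389 in Sd7, 243 in Sd8 and 64.5 in Sd9 of WT. The 2 genes overlapped in Sd3 and Sd4, and over the 13 WT clusters their levels had a Pearson's r of -0.13 on the log2(CPM + 1) scale.

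Sox30 followed a course like that of Fhl5. In WT it was at 70.7 CPM (63.5 to 78.6) in Sd3, 139 (129 to 151) in Sd4, 159.9 (145 to 176) in Sd5 and 110 (98.5 to 123) in Sd6, and in KO at 65.1, 139, 185 and 104 CPM. Sd4 and Sd5 had overlapping intervals in WT but not in KO. It also had a low level in spermatocytes, 31.2 CPM in Sc2 of WT and 28.8 in KO, or 5.83 and 6.41 UMIs per 1000 Prm1 UMIs against 1.06 and 1.25 over each library. The highest share of cells with a Sox30 UMI was 70.2% in WT, in Sd4, and 73.4% in KO, in Sd5.

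Hemgn and Cdyl marked the passage from round to elongating spermatids, and both are also among the genes with which the study marks its clusters, as is Pou5f2. Hemgn was nearly silent up to Sd3, at 3.86 CPM (2.33 to 6.03) in WT and 6.52 (4.84 to 8.60) in KO, and rose 58.6-fold in WT and 39.5-fold in KO from Sd3 to Sd4. It reached 856 CPM (822 to 892) in Sd5 of WT and 819 (788 to 850) in KO, and fell 4.41-fold and 4.72-fold by Sd6. This was the narrowest peak among the spermatid genes studied here, with 26.4% of the highest WT level in Sd4 and 22.7% in Sd6. Cdyl was broader, as it was already at 44.7 CPM in Sd3 of WT and fell later than Hemgn. It was at 375 CPM in Sd4 of WT, 838 (804 to 873) in Sd5, 842 (809 to 876) in Sd6 and 266 in Sd7, and in KO at 442, 955 (922 to 989), 883 (850 to 917) and 287 CPM. Its WT levels in Sd5 and Sd6 did not differ beyond their intervals, whereas in KO Sd5 was above Sd6. Cdyl was at 95.6 CPM in Sg of WT and 93.2 in KO, with UMIs in 37.9% and 37.6% of these cells and 4.48 and 4.51 UMIs per 1000 Prm1 UMIs, slightly above the 3.50 and 4.02 of the whole libraries. It was near its lowest level in Sc2 and Sd1, at 12.1 and 6.24 CPM in WT.

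**Figure D1:**
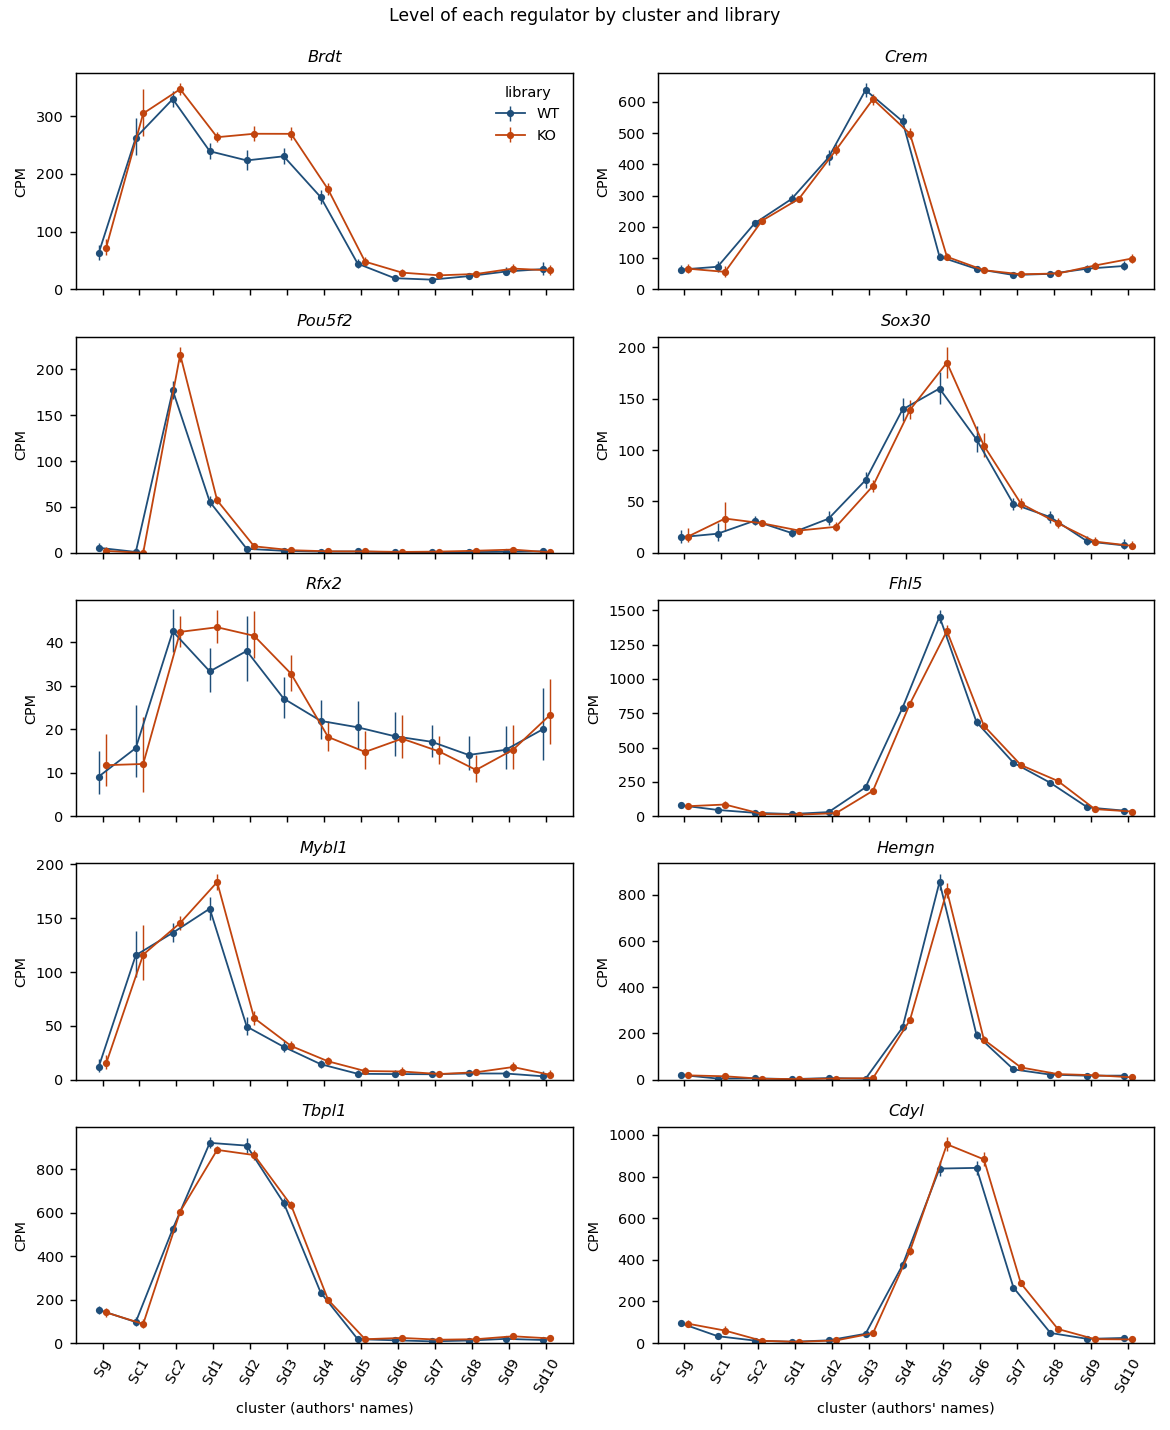
Level of each of the 10 genes (y axis, CPM from summed UMIs, own scale per gene) in the 13 clusters (x axis) of the WT and KO libraries; points are summed levels and bars are exact Poisson 95% intervals for counting error, with 1 library per genotype. Brdt, Pou5f2, Rfx2, Mybl1 and Tbpl1 are highest in Sc2 or Sd1, Crem in Sd3, and Sox30, Fhl5, Hemgn and Cdyl in Sd5 or Sd6.

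The 10 genes thus fell into an early group (Brdt, Pou5f2, Rfx2, Mybl1 and Tbpl1), Crem between, and a late group (Sox30, Fhl5, Hemgn and Cdyl). Over the 13 WT clusters, Pearson's r of log2(CPM + 1) was 0.94 for Fhl5 with Cdyl, 0.91 for Cdyl with Hemgn, 0.92 for Tbpl1 with Brdt and 0.91 for Mybl1 with Brdt. It was -0.66 for Mybl1 with Hemgn. In KO the same 5 pairs had r of 0.95, 0.93, 0.91, 0.91 and -0.61. For Crem in WT, r ran from 0.84 with Tbpl1 and 0.77 with Brdt down to 0.38 with Pou5f2 in the early group, and from 0.33 with Sox30 to -0.25 with Cdyl in the late group. The 13 points share the library and the clustering, so these values describe the profiles only.

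**Figure D2:**
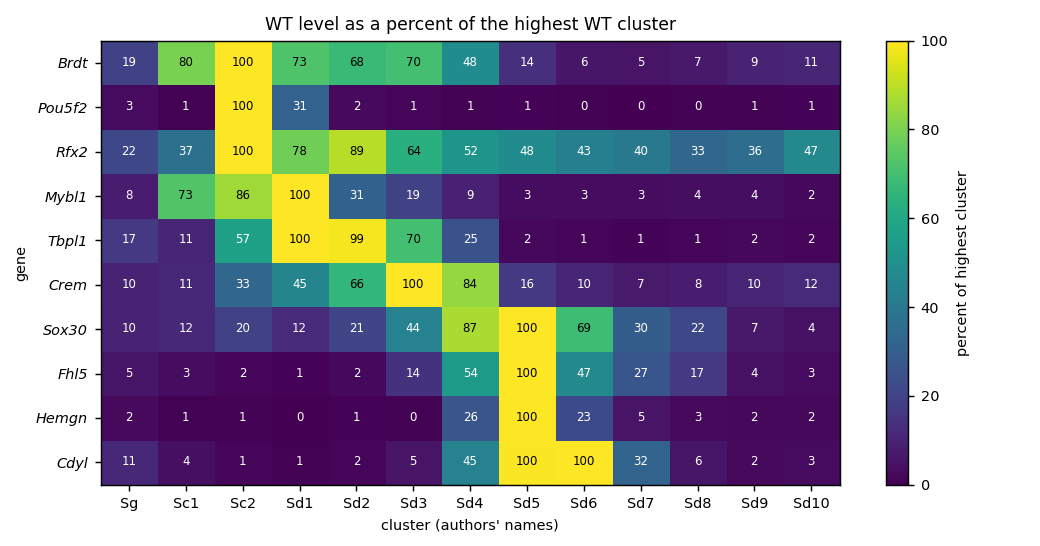
WT level of each gene (rows) in each cluster (columns) as a percent of that gene's highest WT cluster; the number in each cell is the percent. Genes are ordered by where they are highest, from Brdt in Sc2 to Cdyl in Sd5 and Sd6, and Rfx2 stays above 30% in every cluster from Sc1 to Sd10.

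The genes with the most similar WT course were named for each of the 10 genes from a pool of 4200 genes that could be read and had 500 or more UMIs in WT. Closest to Crem were Tekt2, a filament protein of the flagellum (r = 0.979), Ankrd7 (0.971) and Slco6b1 (0.970). Closest to Fhl5 were Tor1aip1, a protein of the inner nuclear membrane (0.985), Tmem132cos (0.983) and Dnajb7 (0.983). Closest to Tbpl1 were Usp1, a deubiquitinase (0.997), Hagh, a glyoxalase (0.9946), and Lyar, a nucleolar protein (0.994). Mybl1 was closest to Ccdc73 (0.978), 2610301B20Rik (0.971) and Spdya, an activator of cyclin-dependent kinases in meiosis (0.968), and Brdt to Glt8d1 (0.981), Sugp2 (0.979) and Wfdc15a (0.974). Hemgn was closest to Gm28269 (0.989), Cst13 (0.979) and Map7, a microtubule-binding protein (0.975), Cdyl to 4921530L21Rik (0.976), 1700030F04Rik (0.974) and Cypt15 (0.969), and Sox30 to Alkbh3 (0.960), Ppp1r2-ps3 (0.959) and the mitochondrial creatine kinase Ckmt2 (0.949). The closest profiles were less alike for Pou5f2, with 4930581F22Rik (0.949), Gm5878 (0.931) and Pomc (0.928), and for Rfx2, with Dis3l (0.934), Ccdc92 (0.927) and Ccnk (0.921). The course of each gene in WT correlated with its own course in KO with r between 0.923 for Rfx2 and 0.99 for Brdt, where the median over the 4200 genes was 0.986.

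The libraries of WT and KO were then compared in each cluster, to ask whether the loss of Tex13a went with another level of these regulators. The difference is given on the log2 scale as KO over WT CPM, with a prior of 1 UMI, and a gene was read in a cluster where it had at least 10 UMIs in both libraries together. Shares of all genes cover only genes so read among the 5476 symbols with a single possible row, which hold 86.9% of UMIs. In the cluster where each gene was highest in WT, none of the 10 genes was 1.5-fold apart. Of all genes, 10.4% were so in Sc2, 8.18% in Sd1, 6.09% in Sd3, 11.9% in Sd5 and 13.3% in Sd6. These shares include genes with as few as 10 UMIs. Of the 10 genes in their highest clusters, Rfx2 was counted least, with 302 UMIs in WT and 539 in KO. Under the larger minimum of UMIs tried, the shares of all genes were 3.93% in Sc2, 1.66% in Sd1, 1.21% in Sd3, 1.56% in Sd5 and 2.77% in Sd6. With 10 genes, a count of 0 cannot be set apart from these shares. The log2 ratio was 0.07 (0.00 to 0.15) for Brdt in Sc2, 0.29 (0.19 to 0.38) for Pou5f2 in Sc2, -0.00 (-0.21 to 0.20) for Rfx2 in Sc2, 0.21 (0.09 to 0.32) for Mybl1 in Sd1 and -0.05 (-0.10 to -0.00) for Tbpl1 in Sd1. It was -0.07 (-0.13 to -0.00) for Crem in Sd3, 0.21 (0.03 to 0.39) for Sox30 in Sd5, -0.11 (-0.17 to -0.05) for Fhl5 in Sd5, -0.06 (-0.15 to 0.02) for Hemgn in Sd5 and 0.07 (-0.01 to 0.15) for Cdyl in Sd6. Several of these intervals exclude 0, but they cover counting error only and hold no spread between animals.

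**Figure D3:**
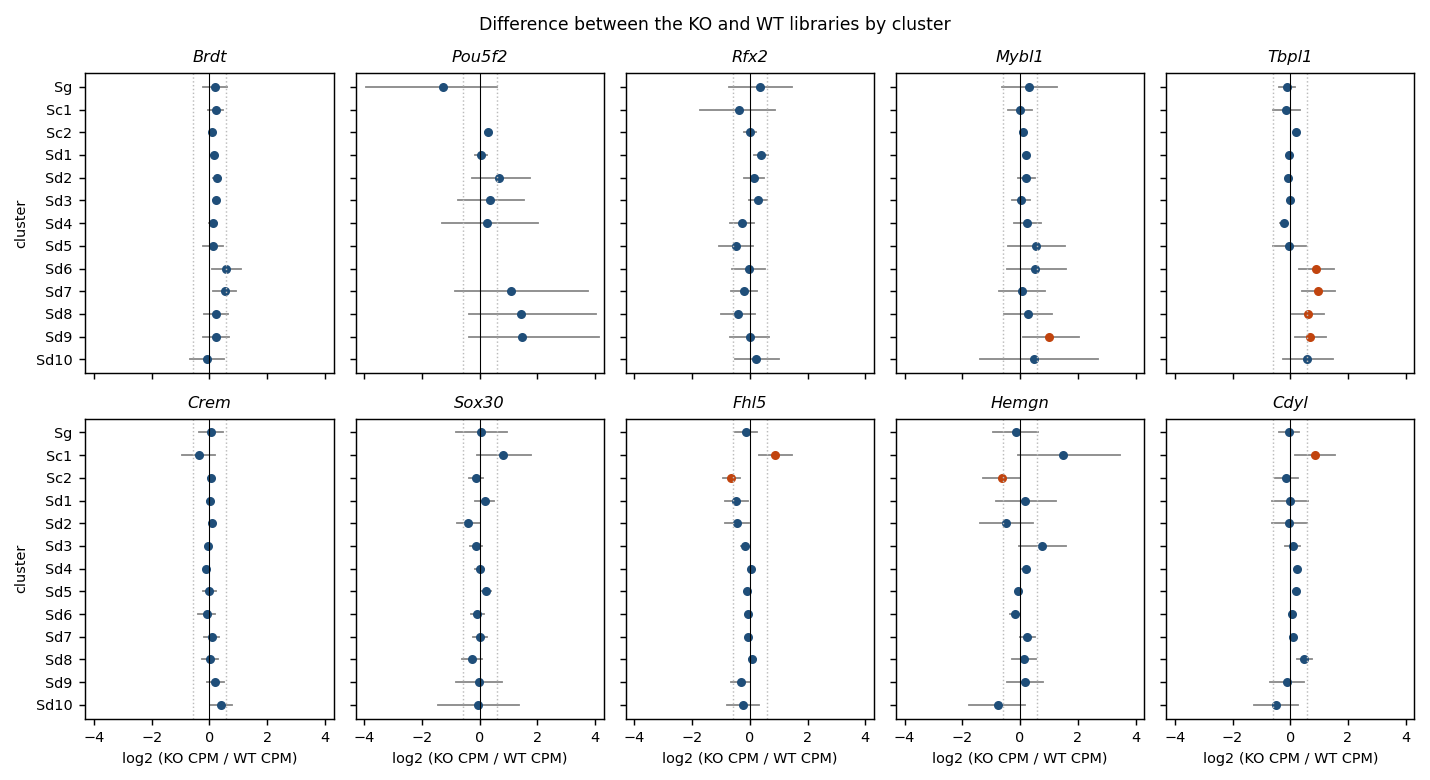
KO over WT CPM on the log2 scale (x axis) of each gene in each cluster (y axis) with at least 10 UMIs in both libraries together; points are ratios, lines are exact conditional 95% intervals for counting error, dotted lines mark 1.5-fold, and orange points are past 1.5-fold with an interval that excludes 0. Orange points are found for Fhl5 in Sc1 and Sc2, Cdyl in Sc1, Hemgn in Sc2, Mybl1 in Sd9, and Tbpl1 in Sd6 to Sd9.

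In Sg, Sc1 and Sc2, the counts of regulators past 1.5-fold rest on 9 or 10 genes, too few to compare these clusters. Sc1 held only 130 cells in WT and 99 in KO. In Sg, 1 of 10 genes was at least 1.5-fold apart (Pou5f2, 9 against 3 UMIs), where 12.6% of all genes were, and 0 were so with an interval that excluded 0, where 4.63% of all genes were. In Sc1, 4 of 9 genes were past the fold (Fhl5, Sox30, Cdyl and Hemgn, all higher in KO), against 15.8% of all genes, and 2 of 9 also excluded 0 (Fhl5 and Cdyl), against 5.06%. Hemgn had 5 UMIs in WT and 11 in KO there, and reached the minimum of 10 UMIs only through KO. Fhl5 was at 46.0 CPM in Sc1 of WT and 85.4 in KO, a log2 ratio of 0.88 (0.33 to 1.47), and Cdyl at 33.3 and 60.1 CPM, a log2 ratio of 0.84 (0.18 to 1.54). Both libraries had fewer of these UMIs per Prm1 UMI in Sc1 than overall (2.07 and 3.68 per 1000 for Fhl5, 1.5 and 2.59 for Cdyl). The spermatid genes themselves were nearly level in Sc1, with log2 ratios of 0.07 for Prm1, 0.01 for Tnp1 and 0.07 for Tnp2. With every cell thinned to 3000 UMIs, Fhl5 in Sc1 had a log2 ratio of 0.29 (-0.82 to 1.41) and Cdyl 1.17 (-0.04 to 2.58). In Sc2, 2 of 10 genes were past the fold and excluded 0, against 10.4% and 5.78% of all genes. These were Fhl5, at 25.2 and 16.1 CPM (-0.64, -0.94 to -0.35), and Hemgn, at 5.91 and 3.77 CPM (-0.64, -1.28 to -0.01), both lower in KO and again below the ratio to Prm1 of the whole libraries. Prm1, Tnp1 and Tnp2 were also lower in Sc2 of KO, with log2 ratios of -0.26, -0.54 and -0.47, whereas Prm2 was at 0.10. After thinning, the intervals of Fhl5 (-0.48, -1.15 to 0.19) and Hemgn (-0.96, -2.32 to 0.31) in Sc2 included 0. The part of spermatid RNA in these 4 differences was not tested.

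From Sd1 to Sd5, where most of the regulators reach their highest levels, no gene met both conditions. In Sd1, 0 of 10 genes were past the fold, against 8.18% of all genes, and 2.75% of all genes also excluded 0. In Sd2, 1 of 10 was past the fold (Pou5f2, 12 against 40 UMIs), against 8.04%, with 0 that excluded 0, against 3.06%. In Sd3, 1 of 10 was past the fold (Hemgn, 19 against 50 UMIs before its rise), against 6.09%, and 0 excluded 0, against 2.23%. In Sd4, 0 of 10 were past the fold, against 6.87%, and in all genes 2.57% also excluded 0. In Sd5, 0 of 9 were past the fold, against 11.9%, and 3.74% of all genes also excluded 0. With 9 or 10 genes, a count of 0 cannot be set apart from these shares.

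In Sd6 to Sd9, the genes past the fold were early genes at low levels. In Sd6, 1 of 9 genes was past the fold and excluded 0 (Tbpl1), against 13.3% and 4.29% of all genes. In Sd7, 2 of 10 were past the fold (Tbpl1 and Pou5f2), against 13.6%, and 1 excluded 0 (Tbpl1), against 4.9%. In Sd8, the same 2 of 10 were past the fold, against 13.7%, and again 1 excluded 0 (Tbpl1), against 4.41%. In Sd9, 3 of 10 were past the fold (Tbpl1, Mybl1 and Pou5f2), against 21.1%, and 2 excluded 0 (Tbpl1 and Mybl1), against 9.03%. Pou5f2 had 3 WT UMIs in each of Sd7, Sd8 and Sd9, against 8, 11 and 9 in KO. It reached the minimum of 10 UMIs there only through KO, so its place past the fold carries no weight. In Sd10, 1 of 9 was past the fold (Hemgn, 22 against 18 UMIs), against 25.4%, and 0 excluded 0, against 9.2%. Tbpl1 was the gene that met both conditions in more than 2 clusters. After thinning, Tbpl1 still met them in Sd7 (1.54, 0.66 to 2.58) and Sd9 (0.90, 0.10 to 1.77), but not in Sd6 (0.76, -0.28 to 1.92) or Sd8 (0.25, -0.45 to 0.99), and Mybl1 in Sd9 did not (1.08, -0.15 to 2.53).

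Tbpl1 was higher in KO in each cluster from Sd6 to Sd10. In Sd6 it had 37 UMIs in WT and 72 in KO, in Sd7 41 and 92, in Sd8 45 and 86, in Sd9 51 and 80, and in Sd10 18 and 38. These are levels of 12.8, 7.97, 11.7, 19.5 and 14.4 CPM in WT and 23.8, 15.6, 17.9, 31.4 and 21.6 CPM in KO, all far under the 922 CPM of Sd1. The log2 ratios were 0.88 (0.30 to 1.5), 0.96 (0.42 to 1.53), 0.61 (0.08 to 1.17), 0.68 (0.16 to 1.22) and, with an interval that includes 0, 0.57 (-0.26 to 1.48) in Sd10. In Sd5, just before, Tbpl1 was level, with 50 UMIs in WT and 58 in KO and a ratio of -0.03. The share of cells with a Tbpl1 UMI in Sd7 was 4.0% in WT and 8.38% in KO at full depth, and 1.71% and 5.05% after thinning. At these low levels, reads of Slc2a12 in the exon that overlaps Tbpl1 on the other strand cannot be told apart from Tbpl1 reads.

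These 4 clusters were then summed, a choice made after their values were seen. Over Sd6 to Sd9 together, Tbpl1 had 174 UMIs in WT and 330 in KO, or 12.02 and 20.3 CPM, a log2 ratio of 0.75 (0.48 to 1.03). Of 4956 genes read there, 2.82% were at least 1.5-fold higher in KO with an interval that excluded 0, and 2.91% had a ratio at or above that of Tbpl1. Of the 1321 genes among them that, like Tbpl1, were highest in Sc2 or Sd1 of WT, 5.0% were higher by the same measure and 3.79% were at or above Tbpl1. The genes with the same WT course as Tbpl1 were also higher in KO, as Lyar had a log2 ratio of 0.57 (0.48 to 0.66, 1636 and 2723 UMIs), Usp1 0.54 (0.41 to 0.67, 769 and 1254 UMIs) and Hagh 0.37 (0.14 to 0.61, 257 and 374 UMIs). Brdt was at 0.37 (0.15 to 0.58, 312 and 452 UMIs), Mybl1 at 0.41 (-0.01 to 0.85, 78 and 117 UMIs) and Pou5f2 at 1.29 (0.29 to 2.47, 11 and 31 UMIs). The late group and Crem lay closer to 0 over the same cells, with log2 ratios of 0.03 for Crem, -0.04 for Fhl5, -0.09 for Sox30, 0.06 for Cdyl and -0.04 for Hemgn. Rfx2 was at -0.19 (-0.46 to 0.08).

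**Figure D4:**
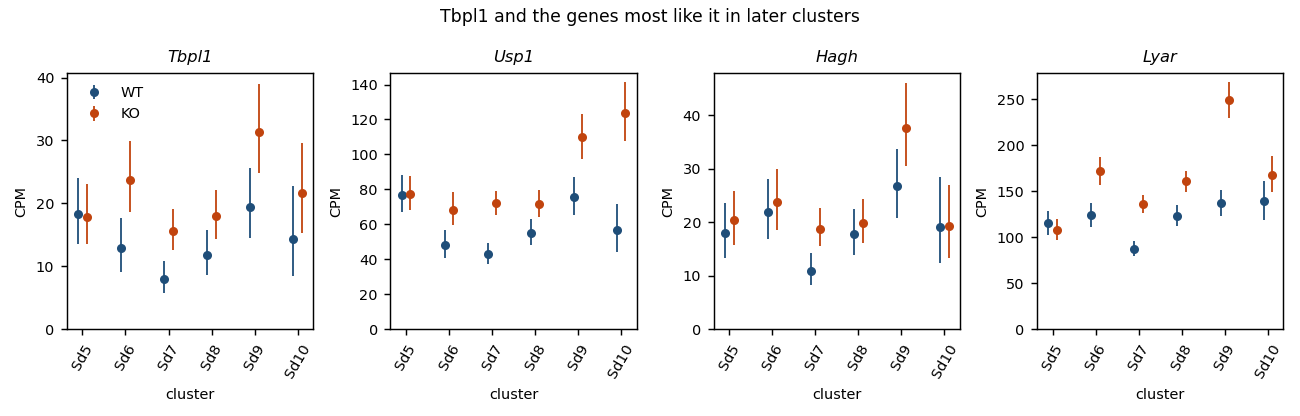
Level (y axis, CPM) of Tbpl1 and of Usp1, Hagh and Lyar, the 3 genes with the most similar WT course, in clusters Sd5 to Sd10 (x axis) of the WT and KO libraries; points are summed levels and bars are exact Poisson 95% intervals for counting error. In Sd5 the intervals of the log2 ratio of all 4 genes include 0. In Sd6 to Sd9 the KO points of all 4 genes lie above the WT points. For Hagh, however, the ratio in Sd6 (0.12, -0.39 to 0.63) and Sd8 (0.16, -0.30 to 0.63) was no larger than in Sd5 (0.18, -0.37 to 0.75).

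Of the late spermatocyte markers other than Tbpl1, Piwil1 had a log2 ratio of 0.12 over Sd6 to Sd9, Ldhc 0.03, Pgk2 0.02, Ccna1 -0.00, Aurka -0.04 and Spag6 0.12. Among all genes that were highest in Sc2 or Sd1 of WT, the median log2 ratio was 0.03 in Sd5, 0.09 in Sd6, 0.14 in Sd7, 0.10 in Sd8, 0.31 in Sd9 and 0.17 in Sd10, where the medians of all genes were 0.00, 0.02, 0.05, 0.04, 0.09 and 0.04. The KO library had the larger share of cells in Sc2 and Sd1, with 12.4% and 14.6% against 9.44% and 9.92% in WT, and the smaller share in Sg and Sc1, with 2.79% and 1.37% against 4.24% and 2.51%. Neither the part of Sc2 and Sd1 cells, or of their RNA, nor that of Slc2a12 reads in the late Tbpl1 UMIs was tested.

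Other genes of the same processes were read from lists compiled from textbook knowledge. Whether each listed gene depends on the factor named was not tested here. Of 10 genes listed as dependent on CREM in spermatids, all were read in Sd9 and Sd10. Of these, 0 were at least 1.5-fold higher or lower in KO in either cluster. Among all genes, 21.1% in Sd9 and 25.4% in Sd10 were. Ldhc and Pgk2, which are on this list, are also among the late spermatocyte markers. The list holds genes with very high counts, such as Prm1 with 47654 and 54806 UMIs in Sd10. Under the larger minimum of UMIs tried, the shares of all genes fell to 7.23% in Sd9 and 9.88% in Sd10. A count of 0 of 10 cannot be set apart from such shares. The median log2 ratio of the 10 listed genes was -0.05 in Sd9 and -0.14 in Sd10, beside 0.09 and 0.04 for all genes. Prm1 was at 149173 CPM in Sd9 of WT and 139848 in KO, and Tnp1, a transition protein, at 7903 and 7507 CPM. In Sd10, Tnp1 had a log2 ratio of -0.55 (2897 and 2784 UMIs) and Prm1 of -0.29 (-0.31 to -0.27), while Prm2 (-0.03) and Smcp, a protein of the sperm mitochondrial capsule (0.09), were nearly level.

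Of 9 pachytene and piRNA genes listed as dependent on MYBL1, 2 were at least 1.5-fold higher and 0 lower in Sd9. Of the 7 read in Sd10, 3 were higher and 1 lower. Among all genes, 15.9% were higher and 5.2% lower by this measure in Sd9, and 15.6% and 9.8% in Sd10. Their median log2 ratio was 0.37 in Sd9 and 0.20 in Sd10. Tdrd9, a piRNA helicase, had 18 and 35 UMIs in Sd9 (0.98, 0.14 to 1.90), and Tdrd6, a Tudor protein of the chromatoid body, had 4 and 25 UMIs in Sd10 (2.04, 0.62 to 4.13). Ccna1, the meiotic cyclin A1, had 14 and 42 UMIs in Sd10 (1.07), and the germ cell helicase Ddx4 had 16 and 39 (0.78, -0.08 to 1.73). Of the 17 intraflagellar transport and BBSome genes read in Sd9, a class that RFX factors control, 3 were higher and 0 lower, and of 16 in Sd10, 3 were higher and 0 lower. Their median was 0.44 in Sd9 and -0.07 in Sd10, and Wdr35 had 10 and 25 UMIs in Sd9 (1.32) and 6 and 6 in Sd10 (-0.45). Ift46 had 17 and 28 UMIs in Sd9 (0.74, -0.16 to 1.72) and a ratio of 0.09 in Sd10. Ift43 and Dync2h1, the motor of retrograde transport, had ratios of 0.44 and 0.52 in Sd9, and 0.85 and 0.87 in Sd10. Read with a minimum of 100 UMIs or centred on the median gene, the median of this list in Sd9 lay between 0.15 and 0.35.

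Among 13 other testis transcription regulators read in Sd9, 3 were at least 1.5-fold higher in KO and 0 lower, and of 10 in Sd10, 0 were past the fold, beside 15.9% higher and 5.2% lower of all genes in Sd9 and 15.6% and 9.8% in Sd10. Their median was 0.07 in Sd9 and 0.10 in Sd10. Gtf2a1l, the germ cell form of a TFIIA subunit, which binds TBPL1, had 44 and 65 UMIs in Sd9 (0.60), and was level in Sd1, at 620 CPM in WT and 599 in KO. Kctd19 (6 and 14 UMIs) and Ovol2 (10 and 16 UMIs) had ratios of 1.19 and 0.69 in Sd9, with intervals that included 0. Of 30 other chromatin regulators read in Sd9, 6 were higher and 1 lower, and of 26 in Sd10, 5 were higher and 1 lower, beside the same shares of all genes, with medians of 0.20 and 0.04. The median in Sd10 lay between -0.00 and 0.42 under the same alternatives. Psme4, a proteasome activator that takes part in the removal of acetylated histones, had 869 and 1285 UMIs in Sd9 (0.60, 0.48 to 0.73) and 254 and 842 in Sd10 (1.24, 1.03 to 1.44). Phf7, a histone ubiquitin ligase of spermatids, had 332 and 603 UMIs in Sd9 (0.90) and 112 and 211 in Sd10 (0.42). Chd5, a remodeller of spermatid chromatin, had 67 and 155 UMIs in Sd10 (0.71) and was level in Sd9 (-0.03). Kdm5b, a histone demethylase, had 28 and 61 UMIs in Sd10 (0.62, -0.04 to 1.33) and a ratio of 0.25 in Sd9. Sd9 and Sd10 were also the clusters in which the largest shares of all genes were past the fold.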

How the data were processed

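Per the labels and the methods of the study, the authors checked reads with FastQC 0.11.7, trimmed them with fastp 1, aligned them to mm10 with STAR 2.5.3a, assigned them to Ensembl genes with featureCounts 1.6.2 and collapsed them to UMIs. The deposited values are raw UMI counts, for cells kept by the authors in Seurat 3.2.3 with limits that are not given in the sources used here, and the deposited cell table gives library, cluster and the percent of mitochondrial UMIs. No cell was left out here and no doublet caller was run. The matrix has 26758 rows and 25065 symbols, so the 30 mitochondrial symbols were matched to rows whose sums gave that percent in 12408 of 12408 cells, and a row was allowed to have no symbol if under 5 cells held it. Fhl5, Rfx2 and Sox30 rest on that assumption, without which 7 of the 10 genes have 1 possible row. The genes and lists were chosen with earlier results of these data known. Within each cluster of a library the UMIs of its cells were added up and scaled to CPM. Intervals are exact Poisson for levels, exact binomial (Clopper-Pearson) for shares of cells and exact conditional for ratios. Genes were named by rule: every regulator, the 3 genes most like each by Pearson's r over the WT clusters, and of each list up to 4 genes past 1.5-fold in Sd9 or Sd10, or else the 4 with most UMIs. Python 3.11.15, numpy 2.4.6, scipy 1.17.1 and pandas 2.3.3 were used, and the interval code was tested on simulated data. Promoter windows are from RefSeq and gene positions from GENCODE vM21, both on GRCm38. The alternatives tried were ratios centred on the median gene, totals that omit mitochondrial genes, means of single-cell CPM, a prior of 10 UMIs, omission of the top 5% of cells by UMIs, thinning of each cell to 3000 UMIs, and minimums of 100 UMIs or none. The sum over Sd6 to Sd9 was added after the data were seen.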

Additional observations from a re-analysis of the deposited data

How the results depend on the processing

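Summed over the 13 clusters, 9 of 126 combinations of a regulator and a cluster were past 1.5-fold with an interval that excluded 0. When cells were thinned to 3000 UMIs, where fewer UMIs are counted, 5 were. Of all genes, between 2.23% (Sd3) and 9.2% (Sd10) met both conditions in a cluster at full depth. The share of all genes after thinning was not computed. Of the 9, Tbpl1 in Sd7 and Sd9 remained after thinning, and Brdt in Sd7, Cdyl in Sd8 and Sox30 in Sd2 were added. The other alternatives gave 6 to 10. Tbpl1 in Sd8 fell short of 1.5-fold under 4 of 7 alternatives, with log2 ratios from 0.25 to 0.57. Tbpl1 over Sd6 to Sd9 together had log2 ratios from 0.71 to 0.95 under 5 alternatives. These reuse the same UMIs, and the clusters were summed after each was seen to be higher in KO, so the kept direction is no check. Of 126 ratios of a regulator in a cluster, thinning moved 22, single-cell means 3 and leaving out the cells with most UMIs 1 beyond their counting intervals. No ratio past 1.5-fold with an interval that excluded 0 changed sign. Cdyl in Sd10, at a log2 ratio of -0.48 with 31 UMIs in each library, lay between -0.53 and 0.97. The highest WT cluster of Cdyl was Sd5 instead of Sd6 under 3 of 4 alternatives, and that of Rfx2 in KO was Sd2 instead of Sd1 after thinning. Of the 3 genes most like each regulator, at least 2 were again among the 3 nearest for 6 of 10 regulators in the KO clusters, and for 1 of 10 by Spearman's rho. With a minimum of 100 UMIs, between 1.21% and 9.88% of all genes were past 1.5-fold in a cluster, and with no minimum between 11.5% and 36.8%. The list medians in Sd9 and Sd10 moved most for chromatin regulators in Sd10, to 0.42 with a minimum of 100 UMIs, and for transport genes in Sd9, to 0.15. Single-cell means give no interval and therefore no such count. No paired analysis was possible because each genotype has 1 library. Sc1 had the fewest summed UMIs, 1020887 in WT and 749010 in KO. In the late clusters, Pou5f2 rests on 1 to 11 UMIs per cluster and library.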

Other observations

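Without regard to clusters, the regulators would have appeared to differ between the libraries by stage. Over all cells, the early genes were higher in KO, with 349 and 446 CPM for Tbpl1 (log2 ratio 0.36, 0.33 to 0.38), 151 and 196 for Brdt (0.37), 52.5 and 74.1 for Mybl1 (0.50), 35.3 and 52.5 for Pou5f2 (0.57) and 25.4 and 29.7 for Rfx2 (0.22). Crem was at 0.14. The late genes were lower in KO, with 310 and 251 CPM for Fhl5 (-0.31), 96.7 and 80.0 for Hemgn (-0.27), 188 and 168 for Cdyl (-0.17) and 56.8 and 52.1 for Sox30 (-0.12). When each KO cluster was given its WT share of the UMIs, the log2 ratios became 0.02 for Tbpl1, 0.16 for Brdt, 0.16 for Mybl1, 0.25 for Pou5f2, 0.05 for Rfx2, -0.02 for Crem, -0.05 for Fhl5, 0.01 for Hemgn, 0.15 for Cdyl and -0.01 for Sox30. The size of the ratio fell for all 10 genes, and Cdyl, Hemgn and Crem changed sign. How many cells of each stage enter a library can differ between 2 preparations as well as between genotypes, and these cannot be told apart here.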
